A study of Mus musculus with 3 samples.

Results

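The gonadal microRNA miR-202 was examined in small RNA libraries made from CD1 mice, an outbred laboratory strain, with 1 each of mature sperm, testis of adults and uterus of adults. Its reads were those of 18 to 26 nt that matched the annotated Mir202 hairpin in full and in sense. They comprised 14 distinct sequences among the 6008 distinct sequences that matched any of 1178 microRNA hairpins. The sperm came from the cauda epididymis, where mature sperm are stored, and had been exposed to a detergent buffer that lyses somatic cells. Testis and uterus are labelled as tissues with no sort named, and the labels give neither the age beyond adult nor the number of animals pooled. Each group was 1 library, so replicates give no error here and groups were compared without tests. In such bulk samples, fewer cells of a type and less RNA per cell cannot be told apart.

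A microRNA is cut from a hairpin transcript in a pair of steps, by Drosha in the nucleus and by Dicer in the cytoplasm. The cuts leave a short duplex of a 5p and a 3p arm, of which usually 1 is kept by an Argonaute protein. Bases 2 to 8 of the kept arm, the seed, direct it to target RNAs, so a shift of the first base changes the set of possible targets. miR-202 is known in mice as a microRNA of the gonads, with expression in the Sertoli cells that nurse male germ cells, downstream of the testis differentiation factor SOX9, and in spermatogonial stem cells. Its 3p arm has a sequence related to the let-7 family, which is known to hold back proliferation in mature tissues.

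The sequences on which the results turn are the hairpin with its leading 5p and 3p forms in capitals, and then the forms themselves with bases 2 to 8 in capitals. The form that starts 1 base earlier is shown because its seed differs, and let-7c-5p is shown for comparison with the 3p arm. The hairpin is from GENCODE M21, let-7c-5p is from RefSeq (GRCm38.p6), and the other sequences are reads of the testis library written with U.
Mir202 hairpin: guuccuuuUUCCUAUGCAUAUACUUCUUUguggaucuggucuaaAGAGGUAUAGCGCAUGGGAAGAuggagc
miR-202-5p, start at base 9: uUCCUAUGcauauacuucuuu
miR-202-5p, start at base 8: uUUCCUAUgcauauacuucuuu
miR-202-3p, start at base 45: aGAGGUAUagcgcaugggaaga
let-7c-5p: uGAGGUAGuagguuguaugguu

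Mir202 (ENSMUSG00000065502.1) lies on the minus strand of chromosome 7 at chr7:139957689-139957760 in GRCm38. The hairpin of 72 nt occupies bases 156 to 227 of the 911-nt transcript of Gm2044, a long noncoding RNA gene on the same strand, within exon 2 of 2. On the opposite strand it falls in an intron of Gm16201, and the hairpin mmu-mir-7686 lies 66 bp away on the strand of Mir202. None of the 14 sequences occurred in any other GENCODE M21 transcript besides Mir202 and Gm2044. Reads of the host transcript came almost wholly from the hairpin, which held 3 of 3 Gm2044 reads of 18 to 44 nt in sperm and 2654 of 2656 in testis, while uterus had 0. No read in any library matched the hairpin in antisense or matched mmu-mir-7686.

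Sequencing depth was 15690722 sperm reads, 23783785 testis reads and 15876066 uterus reads. Reads on microRNA hairpins, the main denominator below, numbered 402311, 190098 and 10509769, or 2.56%, 0.799% and 66.2% of each library. Intervals are 95% intervals for counting error only, since reads copied by PCR are not independent molecules. The labelled sources were set against 5 microRNAs of haploid germ cells (miR-34c-5p, miR-34b-5p, miR-449a-5p, miR-465a-5p and miR-881-3p). Per 1000000 microRNA reads, they summed to 47222 for sperm, 460773 for testis and 524 for uterus, where miR-465a-5p and miR-881-3p were at 0 reads. These sums were mostly miR-34c-5p, with 41724, 440673 and 510. Of the 5, 4 were lower in sperm than in testis, as were 63 of 137 arms with at least 100 reads in either library. The other 1, miR-465a-5p, was higher (3557 against 1099). The summed level of the smooth muscle microRNAs miR-1a-3p, miR-143-3p and miR-145a-5p was 51639, 17659 and 71344. Of these sums, miR-143-3p gave 45882, 4882 and 12423, and miR-1a-3p gave 4474, 11578 and 57002.5.

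miR-202 was an abundant microRNA of testis, close to absent from sperm and not seen in uterus. The 5p arm was read 2 times in the sperm library, 2627 times in that of testis and 0 times in that of uterus. The 3p arm was read 1 time in sperm, 27 times in testis and 0 times in uterus. Testis was thus the only library with more than 3 reads of either arm.

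Per 1000000 microRNA reads, the 5p arm stood at 4.97 in sperm (0.602 to 17.96) and 13819 in testis (13296 to 14358). In uterus the 0 reads, taken as 3 counts, allow a level of up to 0.285, and their exact Poisson upper limit is 0.351. The 3p arm stood at 2.49 in sperm (0.0629 to 13.8) and 142 in testis (93.6 to 207), with the same limits in uterus. Per 1000000 reads of all kinds, the 5p arm reached 0.127 in sperm (0.0154 to 0.460) and 110.5 in testis (106.3 to 114.8). In uterus the 3 counts allow 0.189, and the exact upper limit is 0.232. The order of the levels had testis first by either denominator. Below it, the interval of sperm lies above both limits of uterus per microRNA read, which rests on 2 reads, and includes both per read of any kind.

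**Figure D1:**
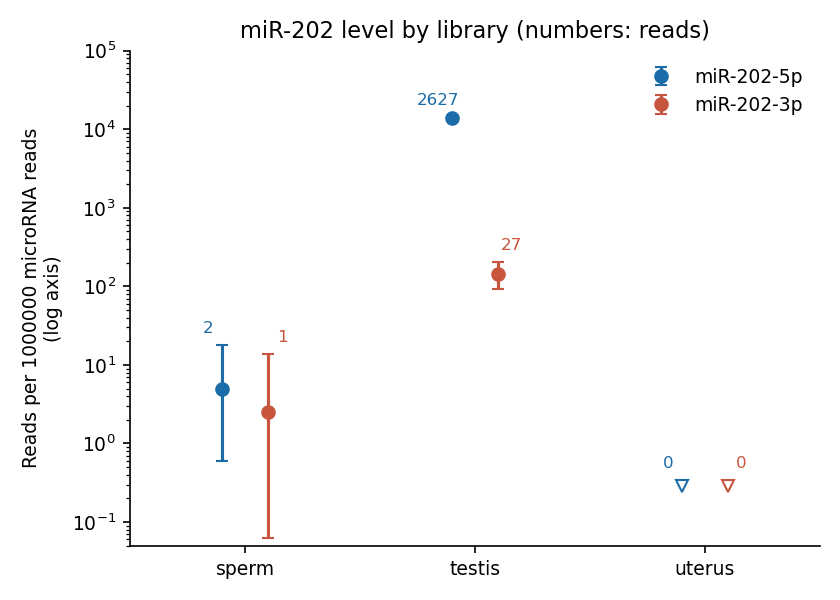
Level of miR-202-5p and miR-202-3p in reads per 1000000 microRNA reads on a log axis, by library. Bars are exact Poisson 95% intervals, with the read count beside each point. Open triangles in uterus mark the level of the 3 counts taken for 0 reads (0.285). The 5p arm at 13819 in testis stands far above its interval in sperm, which ends at 17.96.

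Among the 493 arms seen in testis, miR-202-5p ranked 10 by reads and took 1.38% of the microRNA reads of that library. miR-34c-5p, known from spermatocytes and spermatids, led with 44.1%, followed by let-7f-5p with 11.7%. The neighbours of miR-202-5p in this order were miR-191-5p with 2971 reads and miR-140-3p with 2286. Both counts lie outside the counting interval of its own 2627 reads. miR-202-3p ranked 148.

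The first comparison asks how much of the testis level is found in mature sperm. At the testis level per microRNA read, the sperm library would have held 5559.6 reads of miR-202-5p, and at the level per read of any kind 1733, against the 2 that were seen. The log2 ratio of sperm over testis was −11.44 (−14.49 to −9.59). With all reads as the denominator it was −9.76 (−12.81 to −7.90). For miR-202-3p, 57.1 reads would have been held at the testis level per microRNA read, against the 1 seen, and the log2 ratio was −5.84 (−11.19 to −3.24).

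Of 137 arms with at least 100 reads in sperm or testis, 29 (21.2%) were at least 4-fold higher in testis, and miR-202-5p was 1 of them. Its log2 ratio was the lowest of the 137, whose median was 0.26. The next lowest were miR-107-3p at −9.02 (−10.64 to −7.79), miR-503-5p at −8.86 (−14.17 to −6.37) and miR-34b-5p at −7.54 (−8.30 to −6.87). The intervals of the first and second of these reach into that of miR-202-5p, so its place as the lowest is not separated from theirs by counting error. The single arm at 0 sperm reads, miR-449c-5p with 190 in testis, has only an upper limit of −7.07 from the 3 counts taken for its 0, so its order against miR-202-5p is not known. miR-34b-5p lies above the upper bound of −9.59. miR-202-3p, with 27 reads in testis, was below the read minimum and was not among the 137.

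**Figure D2:**
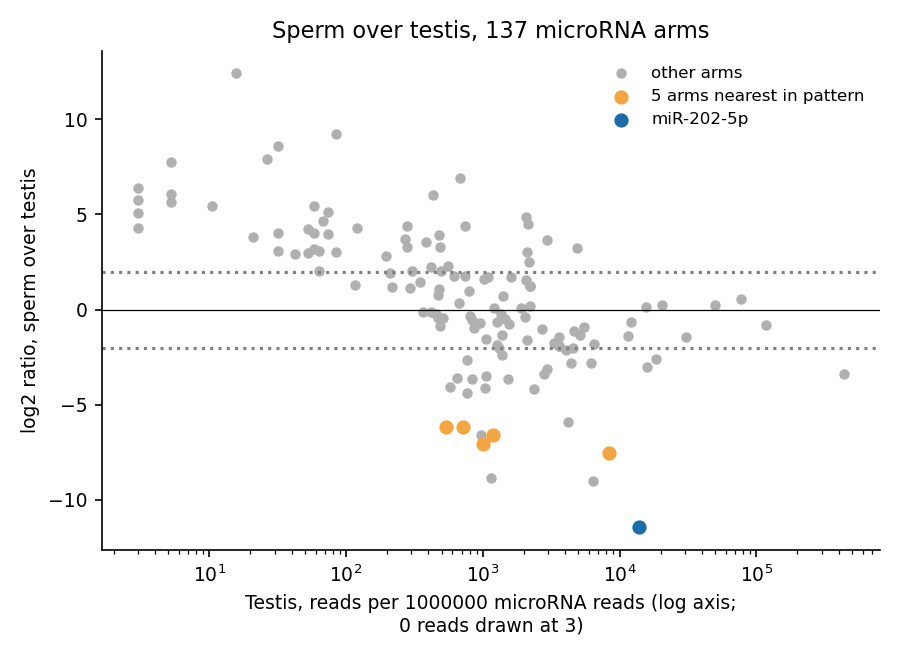
Log2 ratio of sperm over testis against the testis level in reads per 1000000 microRNA reads (log axis, arms with 0 testis reads drawn at 3) for 137 microRNA arms; dotted lines mark 4-fold. miR-202-5p, at −11.44, is the lowest point and lies at a high testis level of 13819.

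The 3 sperm reads were of forms that also led in testis. The 5p reads were 1 of the 21-nt form and 1 of the 20-nt form that start at base 9, which ranked 1 and 2 in testis with 2207 and 217 reads. The 3p read was the 22-nt form, which ranked 1 in testis with 16 reads. With so few reads, the 5p share of 66.7% in sperm (9.43 to 99.2%) could not be set apart from that in testis.

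Lists of germ cell microRNAs were read beside miR-202. The 12 microRNAs of meiotic and haploid germ cells include the 5 haploid germ cell microRNAs given above. Of the 12, 11 had at least 100 reads in sperm or testis, of which 2 passed 4-fold toward sperm and 3 toward testis. Of all arms, 35.0% passed toward sperm and 21.2% toward testis. The list's median log2 ratio was −1.35, against 0.26 for all arms. With all reads as the denominator, which adds 1.68 to each ratio of sperm over testis, 5 passed toward sperm and 2 toward testis, against 49.6% and 10.2% of all arms. The list's median is then 0.33, against 1.94 for all arms. miR-34c-5p stood at −3.40 (−3.42 to −3.38) and miR-449a-5p at −5.93 (−6.52 to −5.38). miR-184-3p, at 3.68 (3.56 to 3.80), and miR-34b-3p, at 2.23 (1.89 to 2.58), were the members at least 4-fold higher in sperm per microRNA read.

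Of the 7 X-linked members of that list, 6 had at least 100 reads, and these stayed within 4-fold per microRNA read. Of the 6, 3 were above a log2 ratio of 0 and 3 below, against 74 and 63 of all 137 arms. The member left out, miR-463-5p, had 40 sperm and 91 testis reads. It stood at −2.27 (−2.84 to −1.72), past 4-fold toward testis with an interval that includes 4-fold. Per read of any kind, 5 of the 6 were above 0 and 3 of them by at least 4-fold. Of all 137 arms, 101 were then above 0, and 49.6% passed 4-fold toward sperm. The highest of the 6 were miR-465a-5p at 1.69 (1.48 to 1.91), miR-741-3p at 1.58 (1.36 to 1.81) and miR-743a-3p at 0.69 (0.49 to 0.89), all per microRNA read. miR-880-3p stood at −1.53 (−1.85 to −1.21). The log2 ratio of miR-881-3p was −1.82 (−1.95 to −1.69), from 735 reads in sperm and 1227 in testis. miR-470-5p had 813 and 980 reads, at −1.35 (−1.49 to −1.22), which also turns above 0 per read of any kind. All 6 had at least 146 reads in sperm, against the 2 of miR-202-5p, and lower levels than it in testis.

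A second list held 8 microRNAs known from work on mouse spermatogonia, the stem and progenitor cells of the germ line. The 4 with at least 100 reads had a median log2 ratio of 3.45, and 3 of them were at least 4-fold higher in sperm, against 35.0% of all arms. For miR-21a-5p, sperm held 24330 reads and testis 395, and for miR-146a-5p 1027 and 14. miR-20a-5p had 402 and 91, and miR-221-3p 104 and 12. All but miR-21a-5p reached 100 reads only in sperm, so the median and the calls follow in part from the read minimum. None of the 4 was at least 4-fold higher in testis. Below the minimum, miR-222-3p had 58 sperm and 14 testis reads, miR-293-3p 4 and 4, miR-295-3p 3 and 0, and miR-106a-5p 0 and 0. For the somatic gonad, miR-140-3p, which like miR-202 is known to be higher in the male than in the female fetal gonad of mice, had 3124 sperm reads and 2286 testis reads. Its log2 ratio was −0.63 (−0.71 to −0.55), within 4-fold per microRNA read and above 0 per read of any kind, and its interval lies wholly above that of miR-202-5p. The other arm, miR-140-5p, was below the read minimum and went the other way, with 33 sperm and 3 testis reads (2.38, 0.71 to 4.73). miR-140-3p was also abundant in uterus, with 79233 reads and a log2 ratio of testis over uterus of 0.67 (0.61 to 0.73).

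Several markers of other cells were higher in sperm than in testis. All 4 epithelial microRNAs (miR-200a-3p, miR-200b-3p, miR-200c-3p and miR-141-3p) were higher in sperm by at least 4-fold, as were 35.0% of all arms. Each reached 100 reads only in sperm, with 11, 5, 3 and 0 reads in testis, so these calls follow in part from the read minimum. The ratio of miR-141-3p is a lower bound. Their summed level was 96159 reads per 1000000 microRNA reads in sperm and 99.9 in testis, and miR-141-3p was at 0 reads in testis. The 5 leukocyte microRNAs summed to 3194 in sperm and 158 in testis. miR-146a-5p, also on the spermatogonial list, gave 2553 of the sperm sum and 73.6 of the testis sum. It and miR-142a-3p were the 2 members with at least 100 reads, and both were at least 4-fold higher in sperm, as were 35.0% of all arms. Both reached 100 reads only in sperm, with 14 and 8 reads in testis, so these calls follow in part from the read minimum. Below it, miR-150-5p had 92 sperm and 4 testis reads, miR-155-5p 22 and 2, and miR-223-3p 16 and 2. For the endothelial miR-126a-3p, 142 sperm reads and 1 testis read were counted. Of the smooth muscle microRNAs, 1 of 3, miR-143-3p, was at least 4-fold higher in sperm, a share near the 35.0% of all arms, with 18459 sperm reads and 928 testis reads. Of the others, miR-1a-3p was lower in sperm at −1.37 (−1.46 to −1.28), and miR-145a-5p stood at 0.10 (−0.13 to 0.33). The erythroid miR-451a had 29 reads in sperm and 43 in testis, and miR-144-3p had 1 in each. The part of such cells in the microRNA reads of the sperm library was not tested. With all reads as the denominator, of which microRNA reads were 2.56% in sperm, the miR-202-5p ratio was the −9.76 given above.

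The second comparison sets testis against uterus, an organ outside the gonad. With 2627 testis reads and 0 uterus reads, the bound for miR-202-5p was 48412-fold higher in testis per microRNA read. It takes 3 counts for the 0 in uterus and leaves out the counting error of the testis reads. Per read of any kind the bound was 585-fold. Of 238 arms with at least 100 reads in testis or uterus, 62 (26.1%) were at least 4-fold higher in testis, miR-202-5p among them, and its bound was the highest value among the 238. Of these arms 21 had 0 uterus reads, so their values are bounds too and set no order among them. For miR-202-3p, with 27 reads in testis and 0 in uterus, the level in testis was at least 498-fold higher per microRNA read and at least 6.01-fold higher per read of any kind. Between sperm and uterus no ratio was formed, since neither library had more than 3 reads of either arm.

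The arms whose pattern over the libraries was nearest to miR-202-5p were sought among the other 84 arms with at least 100 reads in testis. The level of each arm per 1000000 microRNA reads was divided over the 3 libraries. Likeness was the smallest difference in these shares, summed over the libraries and halved to a scale of 0 to 100 percentage points. The shares of miR-202-5p were 0.0360% for sperm, 99.96% for testis and 0% for uterus. The nearest arms were miR-449c-5p (0.237 percentage points), miR-34b-5p (0.633), miR-7222-5p (0.999), miR-7234-3p (1.32) and miR-471-3p (1.33). Of these, miR-34b-5p had 18 sperm, 1581 testis and 118 uterus reads, and miR-449c-5p had 0, 190 and 25. The other 3 had 3 to 5 reads in sperm and 102 to 226 in testis, and 0 in uterus. For miR-7222-5p and miR-7234-3p the leading length was 26 nt, the upper edge of the window of 18 to 26 nt. At its leading end miR-7234-3p held 33.6% of its testis reads. Whether such reads are of microRNAs was not tested. All 5 were less abundant in testis than miR-202-5p, and the pattern rests on 3 libraries.

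The choice of arm was strongly toward 5p in testis. Of 2654 reads, 2627 were 5p and 27 were 3p, a 5p share of 99.0% (98.5 to 99.3%) or 97.3 5p reads for each 3p read (66.7 to 148). Apart from 4 5p reads that ended at base 30, no read touched the 15 bases between the leading forms, from base 30 to base 44. The 0 reads centred there, taken as 3 counts, allow a share of loop reads of up to 0.113%. Among the 102 hairpins with at least 100 testis reads, 66 had a still higher share on their leading arm, with a median of 99.9%. Rare as it was, the 3p arm of miR-202 was, as counted, a larger fraction than the minor arm of those 66 hairpins. Some of them had few reads, such as Mir24-1 with 106 and 0 on its arms or Mir185 with 110 and 1. Their order against miR-202 is thus not set by these counts. Hairpin copies with the same mature sequence, such as Mir1a-1 and Mir1a-2, shared reads and were counted separately.

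The minor arm carries the sequence related to let-7. The seed GAGGUAU of miR-202-3p equals that of each of the 9 let-7 family members compared (let-7a to let-7g, let-7i and miR-98) at 6 of 7 positions and differs at base 8. The 5p seed UCCUAUG equals theirs at 1 of 7. Among 1679 RefSeq mature mouse microRNA names, only let-7j shared the 3p seed in full, with 0 sperm reads, 0 testis reads and 11 uterus reads, and none shared the 5p seed. The 1 miR-202-3p read of sperm stood beside 112201 reads of the 9 let-7 family members in that library, and the 27 of testis beside 58539.

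The predicted fold places the leading forms as the arms of a single duplex. In the minimum free energy structure of the hairpin (−35.5 kcal/mol), the first base of the leading 5p form, base 9, paired with base 64, and the first base of the leading 3p form, base 45, paired with base 27. The 3p form ends at base 66 and the 5p form at base 29, so each overhangs the other's first base by 2 nt at its 3′ end. Such 2-nt overhangs are what the paired cuts of Drosha and Dicer are known to leave. Of the 21 bases of the 5p form, 18 were paired with the 3p form.

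Start positions showed a minor second form on the 5p arm. Of the 2627 5p reads in testis, 2447 (93.1%, 92.1 to 94.1%) began at base 9 and 172 (6.55%, 5.63 to 7.56%) at base 8. Only 5 began at base 10, 2 at base 12 and 1 at base 7. The base 8 form has the seed UUCCUAU in place of UCCUAUG. All 27 3p reads began at base 45, a share of 100% (87.2 to 100%).

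**Figure D3:**
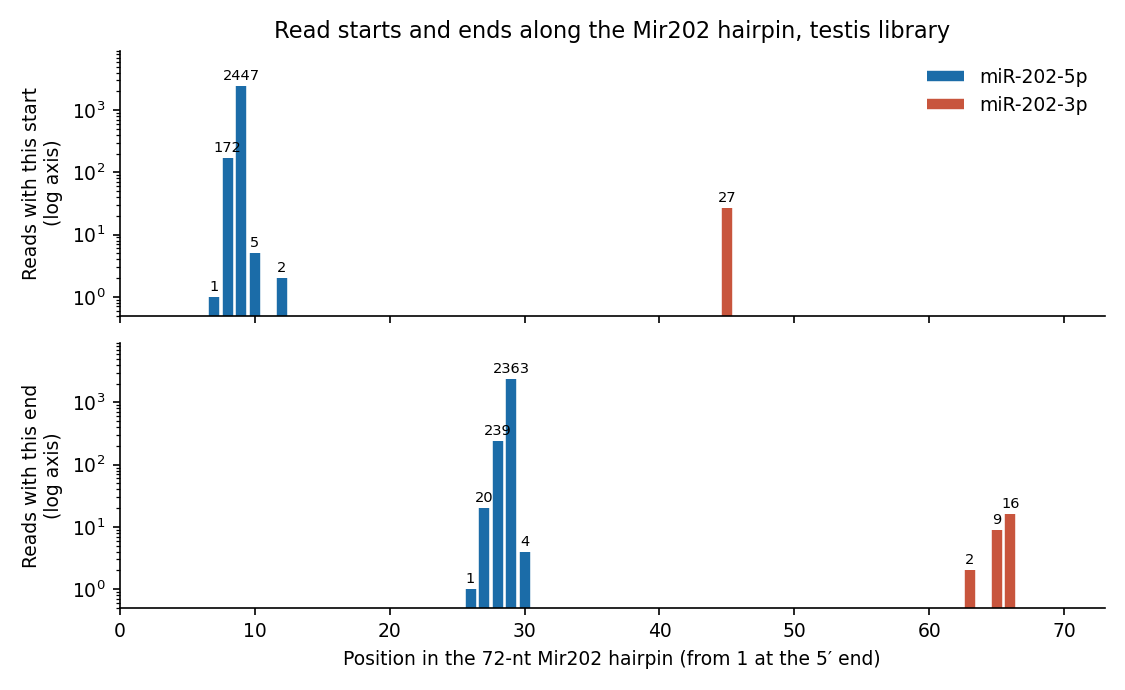
Reads of the testis library by the base of the Mir202 hairpin at which they start (upper panel) and end (lower panel), on log axes, with the read count above each bar. 5p reads start mainly at base 9 (2447) with 172 at base 8 and end mainly at base 29 (2363), and all 27 3p reads start at base 45.

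Ends were also narrow. Of the 5p reads, 2363 (90.0%, 88.7 to 91.1%) ended at base 29 and 239 (9.10%, 8.03 to 10.3%) at base 28, while 20 ended at base 27, 4 at base 30 and 1 at base 26. The leading end was the same for both starts. Among reads that began at base 8, 86.6% ended at base 29 (80.6 to 91.3%), and among those that began at base 9, 90.2% did (88.9 to 91.3%), and these intervals overlap. An earlier start thus gave a longer read: the 149 reads from base 8 to base 29 are the 22-nt form. The 3p reads ended at base 66 in 16 cases, at base 65 in 9 and at base 63 in 2.

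In length, 2230 of the 5p reads (84.9%, 83.5 to 86.2%) were of 21 nt. A further 223 (8.49%, 7.45 to 9.62%) were of 20 nt and 153 (5.82%, 4.96 to 6.79%) of 22 nt, with 18 of 19 nt and 3 of 18 nt. The single sequence from base 9 to base 29, identical to the RefSeq mature form, held 2207 reads or 84.0% of the arm (82.6 to 85.4%). The second sequence, 1 base shorter at its 3′ end, held 217 (8.26%), and the third, from base 8 to base 29, held 149 (5.67%). Next came the form from base 8 to base 28 with 22 reads and that from base 9 to base 27 with 18. The remaining 6 sequences held 14 reads together. Of the 27 3p reads, 16 (59.3%, 38.8 to 77.6%) were of 22 nt, 9 of 21 nt and 2 of 19 nt. The longest read on the hairpin was of 22 nt in testis, a library in which only 7.27% of reads were of 18 to 26 nt, and no read of 27 to 44 nt matched it.

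**Figure D4:**
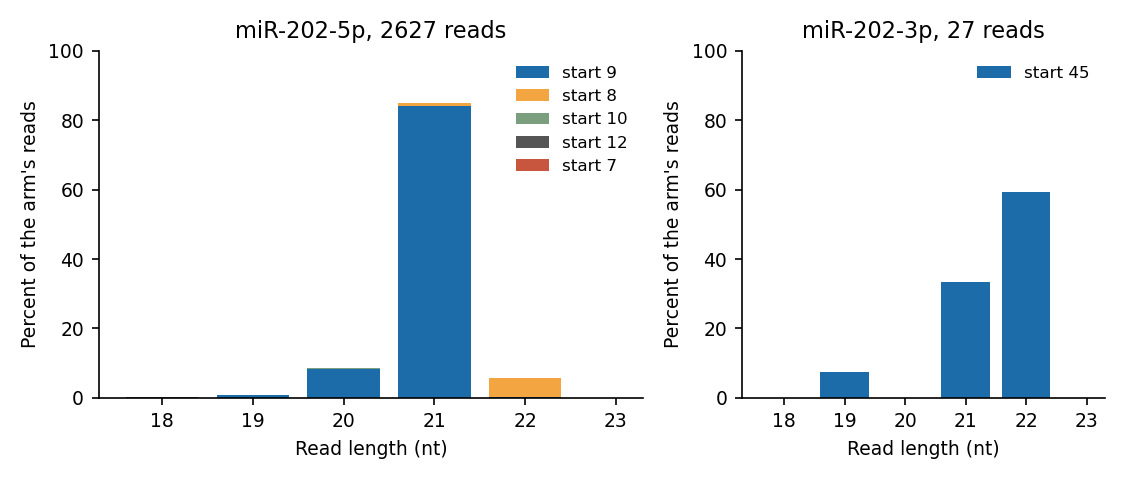
Percent of the reads of each arm in testis by read length in nt, stacked by the hairpin base at which the read starts. The 21-nt form that starts at base 9 makes up 84.0% of miR-202-5p, the 22-nt reads of that arm are almost all of the base 8 start, and miR-202-3p is led by 22 nt with 59.3%.

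Set beside the 85 arms with at least 100 testis reads, miR-202-5p was less uniform than most at its start and more uniform than most at its end. Its 93.1% at the leading start was exceeded by 63 arms, with a median of 99.2%. Its 90.0% at the leading end was exceeded by 10, with a median of 71.6%. A leading length of 21 nt was shared by 11 of the 85 arms, whereas 46 led with 22 nt. Its share of 84.9% at the leading length was exceeded by 17 arms.

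**Figure D5:**
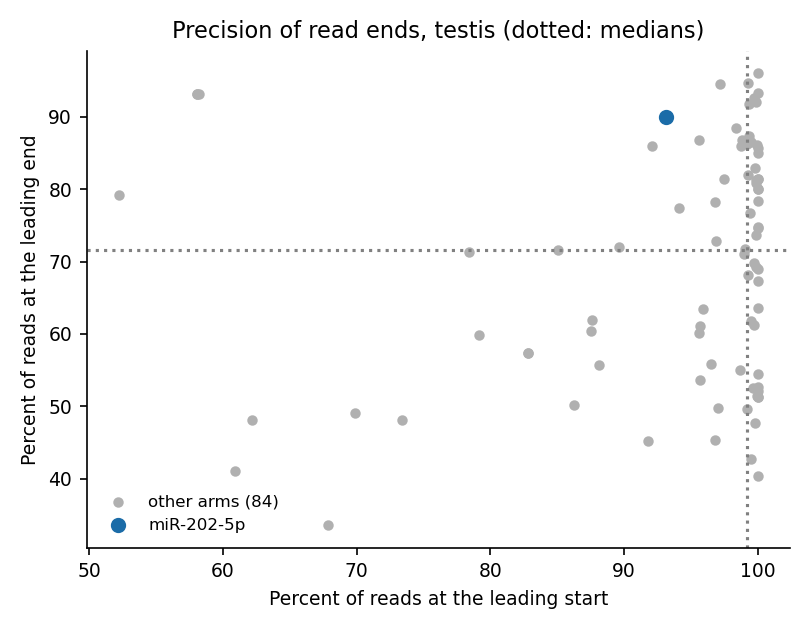
Percent of an arm's testis reads at its leading end against the percent at its leading start, for 85 arms with at least 100 reads; dotted lines mark the medians of 99.2% and 71.6%. miR-202-5p, at 93.1% and 90.0%, lies left of the median start and above the median end.

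Reads with added bases were few. In testis 72 reads matched miR-202-5p apart from 1 to 3 final bases that are not in the hairpin, or 2.67% of exact and extended reads (2.09 to 3.35%). A single A was added in 43 of them, AA in 7 and AAA in 1, and a single U in 11. Of the 85 arms, 80 had a higher share of extended reads, with a median of 13.7%. For other arms this share can include reads of related hairpins that are not annotated. A single substitution outside the last 3 bases was seen in 69 reads, or 2.56% (2.00 to 3.23%), above the median of 1.95% over the arms, with a higher share in 23 of the other 84 and a lower one in 61. The leading one was C12U in 17 reads, counted from the first base of the hairpin with the reference base first. Among the 69, only 2 were of the A-to-G kind that editing of adenosine to inosine would give. Neither sperm nor uterus had a read of either altered class.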

How the data were processed

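Small RNA of 3 sources was sequenced after ligation of adapters at both ends and RT-PCR, per the labels' protocols. The deposited tables list each distinct sequence with its read count, a whole number with no sign of normalization by the authors. Genome build mm9 is named in the submitters' processing notes. Trimming, size selection and aligner: not given in the sources used here. A final line without a sequence was left out. Coordinates are of GRCm38 and were not converted.

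Reads of 18 to 26 nt were matched exactly, in sense, to GENCODE M21 hairpins named as microRNAs (1178 of the 2202 transcripts typed miRNA). The others include tRNA-like genes and took 30557 reads in sperm. The arm was set by the side of the hairpin that held the read's centre. A read that matched several arms counted in full for each and once in the total. Arm names follow RefSeq mature sequences. Shares have Clopper-Pearson, levels Poisson and ratios conditional exact binomial 95% intervals. A count of 0 was taken as 3 counts, and ratios needed more than 3 counts on at least 1 side. Calls at 4-fold needed 100 reads in 1 of the 2 libraries. Named items were both arms, the leading forms, the 5 nearest arms and the members of the lists. The members and lists were chosen with earlier results of these data known. Both steps, matching and ratios, were checked on simulated reads and counts.

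Folding used RNAfold 2.7.2. Normalization factors came from edgeR 4.0.16 and DESeq2 1.42.0 in R 4.3.3, and the rest used Python 3.11.15 with scipy 1.17.1, numpy 2.4.6, pandas 2.3.3 and matplotlib 3.10.9.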

Additional observations from a re-analysis of the deposited data

How the results depend on the processing

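No paired analysis was possible because each group had 1 library. No alternative turned the direction of a miR-202 ratio. The log2 ratio of miR-202-5p in sperm over testis ran from −11.55 to −9.76 and stayed within its interval. The median of all arms shifts by 1.68 for sperm over testis and −6.37 for testis over uterus with all reads as the denominator, by 0.49 and −1.32 with TMM factors, and by −0.02 and −1.46 with DESeq2 size factors. The bound of 15.56 for testis over uterus became 9.19 with all reads, 14.25 with TMM, 14.10 with DESeq2, 15.19 with reads up to 44 nt, 15.68 with 1 substitution and 15.66 with added bases. The testis level of 13819 became 10689.9, 12879 and 12497.5 under the last 3 of these. The share of 21-nt 5p reads was 82.7% with 1 substitution and 83.2% with added bases. Counted as distinct sequences, the 5p share was 78.6%, start 9 held 45.5% and 21 nt 27.3% of 5p, and 22 nt held 33.3% of 3p. A window of 20 to 24 nt, arms by overlap with the mature sequence, and all genes typed miRNA as denominator (chosen after seeing the data) moved no result beyond its interval. Without sequences of a single read, no miR-202 read was left in sperm. In the main setting, arms at least 4-fold higher in testis numbered 29 of 137 against sperm and 62 of 238 against uterus. Arms higher in sperm against uterus numbered 87 of 236. With a minimum of 30 reads, under which more arms are tested, those counts were 52, 122 and 135. With all reads as the denominator they were 14, 27 and 27. Arms higher in uterus then numbered 201 against testis and 165 against sperm, in place of 33 of 238 and 52 of 236.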
